A study of Mus musculus with 32 samples.

Results

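The 10 genes described here encode the plasma proteins that make up most of the blood clotting cascade: the coagulation factors F2, F5, F7, F9, F10, F11 and F12, and the fibrinogen chains Fga, Fgb and Fgg. They were taken by gene symbol from a table of 27179 mouse genes, and all 10 were found and passed the filter on low values. Fibrinogen is the soluble plasma protein that thrombin, the active form of F2, turns into the fibrin mesh of a clot. The clotting factors are mostly protease precursors that activate one another in sequence, with contact activation through F12 and F11, tissue factor and F7, and a common route through F10, F5 and F2. Hepatocytes secrete most of these proteins into the blood, which makes their genes a natural contrast between liver and organs that do not make them.

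The values come from MeDIP-seq, which sequences the DNA fragments captured by an antibody to 5-methylcytosine (5mC), so that a gene with a higher value had more captured fragments. Brain, heart, kidney and liver of mice were either flash frozen or fixed in formalin and embedded in paraffin (FFPE). Neither strain, genotype, sex, age nor any agent is given in the labels of the groups used, and no transgene or drug is named for any of them. The labels list 32 samples as 16 groups of 2, of which 16 samples are antibody precipitates and 16 are unselected Input DNA, while the deposited table has 8 columns, 1 per organ and preservation. The columns name neither antibody nor replicate. They were read as 5mC, each is called a library, and every value below rests on that reading.

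With 1 library per organ and preservation in the table, there was no replicate value within a group. The labels give 2 samples per group, and the sources used here do not say whether a column is 1 of them or combines both. Frozen and FFPE libraries of an organ served as its 2 values, and the spread behind each test is how far organ differences changed between the preservations. That spread was pooled from the gene itself (3 residual degrees of freedom) and from genes of similar signal (13.1 prior degrees of freedom). The p-values measure only this pooled spread and no variation between replicates. Reads on genes numbered 2164158 (FFPE kidney) to 3699218 (frozen liver) per library, and a count of 0 allowed up to 0.876 to 1.42 CPM, the reads scaled to library size. All 8 hepatocyte marker genes were lower in liver than the mean of the other 3 organs, against 7.42% of all genes. Against heart alone 4 of the 8 were called lower (3.29% of all genes), and against kidney alone 4 (0.754%). The summed signal of the 8 was 114 and 159.8 CPM in the liver libraries against 258 to 426 CPM elsewhere. Of the 8 neuron markers 5 were lower in brain (12.8% of all genes), of the 8 cardiomyocyte markers 3 were lower in heart (1.97%), and of the 8 proximal tubule markers 0 were lower in kidney (0.566%) by limma's adjusted p or at an unadjusted p under 0.05; no marker gene of these lists was at 0 reads in any library. These are whole organs, and in bulk tissue the share of cells of a type and the methylation per cell cannot be told apart.

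The promoters of 5 members are shown first, because 5mC in mammalian DNA sits mainly on CG dinucleotides. These are F12 and F7, which were higher in liver, and the 3 fibrinogen genes, which lie together and were lower. Each window runs 5′ to 3′ on the gene's own strand from 250 bases before to 50 bases after the RefSeq start site in GRCm38.p6, the assembly behind mm10, and capitals mark CG dinucleotides. For F7 that start site lies inside the annotated gene, downstream of the start of another transcript.
F12, chr13:55426755-55427054, minus strand: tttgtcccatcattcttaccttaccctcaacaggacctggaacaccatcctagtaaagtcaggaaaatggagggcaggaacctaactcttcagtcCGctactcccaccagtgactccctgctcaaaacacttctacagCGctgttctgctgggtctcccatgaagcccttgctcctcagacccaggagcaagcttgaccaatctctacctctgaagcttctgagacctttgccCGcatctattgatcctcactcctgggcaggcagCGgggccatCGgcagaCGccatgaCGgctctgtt
F7, chr8:13025784-13026083, plus strand: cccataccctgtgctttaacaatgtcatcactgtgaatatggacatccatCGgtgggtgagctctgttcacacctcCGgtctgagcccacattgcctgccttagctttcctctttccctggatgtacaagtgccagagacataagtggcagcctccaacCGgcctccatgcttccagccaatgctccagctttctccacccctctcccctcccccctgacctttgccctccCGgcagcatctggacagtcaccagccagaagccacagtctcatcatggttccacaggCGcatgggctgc
Fga, chr3:83025903-83026202, plus strand: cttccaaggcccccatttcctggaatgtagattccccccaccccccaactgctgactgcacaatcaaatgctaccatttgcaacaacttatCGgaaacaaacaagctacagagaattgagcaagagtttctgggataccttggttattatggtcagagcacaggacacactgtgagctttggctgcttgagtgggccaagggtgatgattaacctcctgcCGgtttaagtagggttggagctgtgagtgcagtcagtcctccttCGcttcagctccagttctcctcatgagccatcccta
Fgb, chr3:83049814-83050113, minus strand: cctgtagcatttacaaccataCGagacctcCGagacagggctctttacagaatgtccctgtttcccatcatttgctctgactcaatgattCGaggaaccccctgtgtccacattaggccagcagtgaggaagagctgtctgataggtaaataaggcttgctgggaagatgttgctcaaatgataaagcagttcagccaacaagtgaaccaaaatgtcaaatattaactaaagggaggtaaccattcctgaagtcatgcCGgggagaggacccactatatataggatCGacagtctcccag
Fgg, chr3:83007474-83007773, plus strand: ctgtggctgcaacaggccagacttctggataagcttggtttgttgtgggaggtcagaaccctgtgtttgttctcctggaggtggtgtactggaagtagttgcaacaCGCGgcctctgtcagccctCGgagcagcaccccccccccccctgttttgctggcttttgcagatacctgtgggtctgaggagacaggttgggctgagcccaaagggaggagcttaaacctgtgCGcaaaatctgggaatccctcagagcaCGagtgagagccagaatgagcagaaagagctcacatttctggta

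CG dinucleotides were sparse in these windows. F12 had the most of the 10 members with 7, of which 4 lay after the start site, and Fga had the fewest with 3. F11 had 6, F7, F9, F10, Fgb and Fgg had 5 each, and F2 and F5 had 4 each. The median over 32851 mouse promoter windows of the same length was 7, with quartiles of 3 and 20. All 10 members thus had no more than that median. The deposited values are per gene, and the sources used here do not say whether counted reads include these windows.

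A set of 3 short letter strings bound by liver transcription factors were searched on both strands of the 10 windows. GTTAAT, a core string of HNF1 sites, was present in F2, Fga and Fgb, against 7.1% of all promoter windows. TTGCNNAA, the string of the C/EBP family, was present in F9, F11, Fga and Fgb, against 10.8%. CAAAGTCCA, an HNF4 string, was in 0 of the 10 windows and in 0.475% of all windows. A match is a description of the letters and does not show binding.

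**Figure D1:**
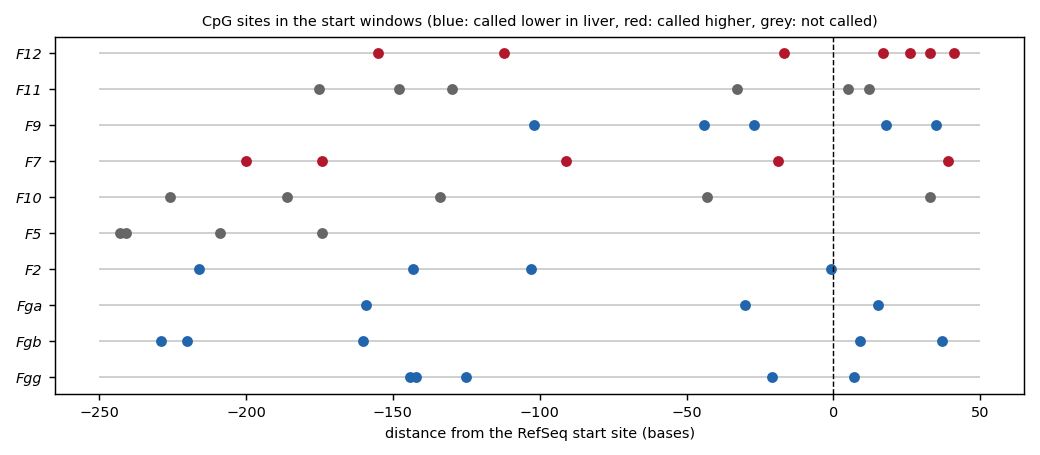
CG dinucleotides in the promoter window of each member, plotted by distance in bases from the RefSeq start site (dashed line), 1 point per dinucleotide, in blue for members lower in liver, red for those higher and grey for those not called. Fga has 3 and F12 has 7, of which 4 follow the start site.

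Liver stood apart from the other organs at 7 of the 10 genes. Signal in liver was lower at Fga, Fgb, Fgg, F9 and F2 and higher at F12 and F7, while F5, F10 and F11 did not pass the test. At each of the 7, both liver libraries lay beyond all 6 libraries of the other organs. By the limma fit of organ and preservation, lower signal in liver was called for 5 of 10 members against 7.42% of the 25982 genes tested, and higher signal for 2 of 10 against 11.8%. These calls rest on the variance trend of the fit, which sets the spread by signal level. Without it 0 of the 25982 genes were called, members included. Calls of members other than F12 and Fga also depended on single libraries, as given for each gene below. Liver libraries below all 6 others were found at 5 members against 10.3% of genes, and above all 6 others at 2 members against 11.7%. The median difference of the members, liver minus the mean of the other 3 organs, was -0.50 on the log2 scale, and that of all genes tested was -0.10.

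Within frozen tissue alone the members' median liver difference was -0.40, and within FFPE tissue -0.67. Each of the 10 members had the same sign in both. Centring each library on its median moved the median of all genes from -0.10 to 0.10 in liver, and the members' median to -0.30. The split of calls over all genes moved from 3056 higher and 1929 lower to 4832 higher and 1240 lower under that centring, and to 1324 higher and 1294 lower under quantile normalization.

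**Figure D2:**
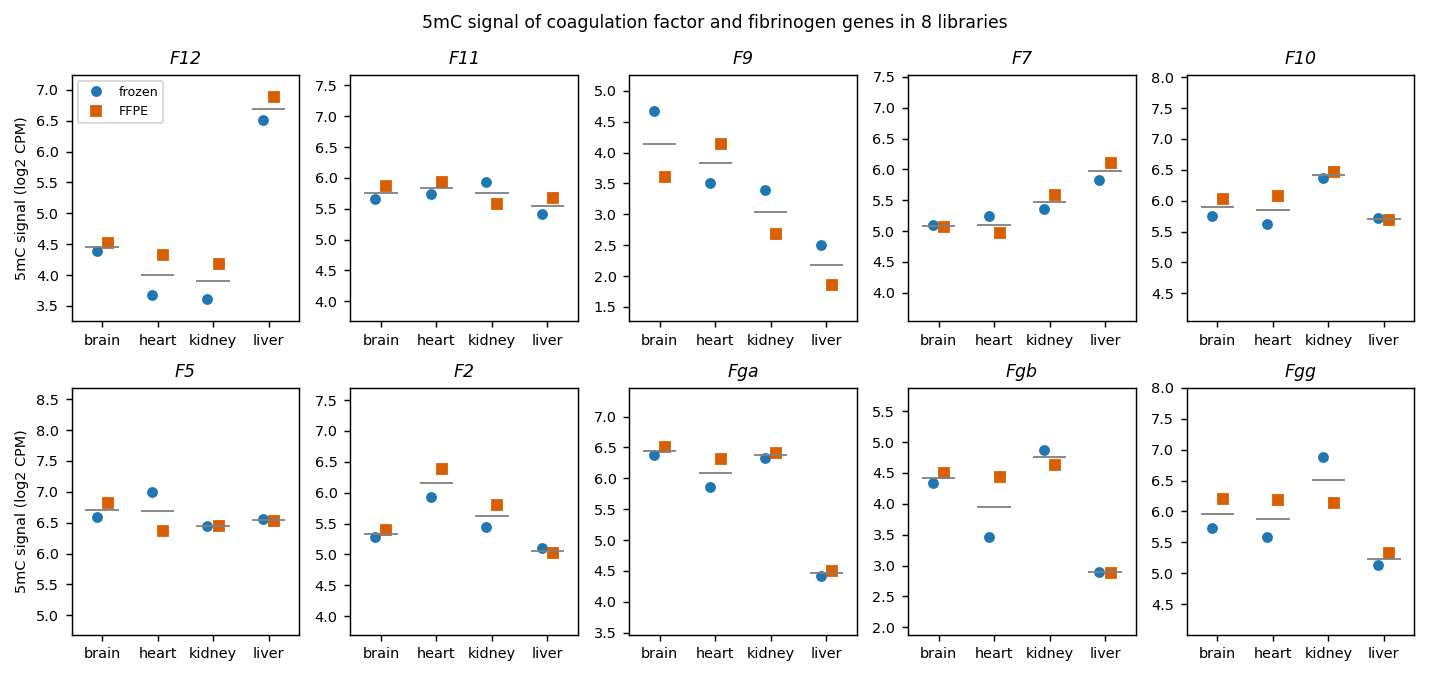
Signal of each of the 10 genes as log2 CPM (vertical axis, of equal span but centred on each gene), 1 point per library by organ, with frozen and FFPE libraries in different symbols and a grey line at their mean. The liver points of Fga, Fgb, Fgg, F9 and F2 lie below all others of their gene, and those of F12 and F7 above.

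F12 encodes the contact factor that starts the intrinsic route of clotting on charged surfaces. It spans chr13:55417958-55426804 and overlaps no other annotated gene. Its log2 CPM was 6.52 in frozen and 6.88 in FFPE liver, 4.40 and 4.51 in frozen and FFPE brain, 3.68 and 4.33 in heart, and 3.62 and 4.19 in kidney. The liver values rested on 313 and 310 reads, and the other 6 libraries had 36 to 76. Both liver libraries were above the rest by a gap wider than the whole range of the other 6. Liver exceeded the mean of the other organs by 2.58 ± 0.24 (SE) on the log2 scale, 5.97-fold, with a limma adjusted p of 2.26e-05. It was 2.62 within frozen and 2.54 within FFPE tissue, and ranged from 2.37 to 2.78 over the alternatives tried.

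Among the 10 members F12 had the largest difference, and its direction was opposite to that of the fibrinogen genes. F12 was higher in liver than in brain by 2.24 ± 0.29, than in heart by 2.69 ± 0.29 and than in kidney by 2.79 ± 0.29 (SE, log2), and all 3 passed the test. Its 6 nearest neighbours in the table, Rgs14, Slc34a1 and Pfn3 on one side and Grk6, Prr7 and Dbn1 on the other, did not. Slc34a1, a kidney phosphate transporter gene that ends 3.26 kb from F12, had a liver difference of 0.01, and Rgs14 had 0.13. Pfn3 at 0.89 and Prr7 at -1.59 were the neighbours with the widest errors, and Grk6 and Dbn1 stood at -0.17 and 0.41.

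F11, the protease precursor that F12 activates, lies at chr8:45240659-45262055 and overlaps the predicted gene Gm30504. Its log2 CPM ran from 5.42 in frozen liver and 5.67 in FFPE liver to 5.93 in FFPE heart and in frozen kidney. FFPE kidney at 5.58 and frozen brain at 5.65 stood between the liver values, so the groups overlapped. The liver difference was -0.24 with a 95% interval of -0.63 to 0.15 (limma adjusted p = 0.405). Klkb1, the prekallikrein gene 4.63 kb away, is described with the other procoagulant genes below.

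F9 is the factor missing in hemophilia B, and its gene is X-linked, at chrX:59999329-60030760. It had the lowest counts of the members, with 9 reads in FFPE and 19 in frozen liver and 13 to 61 elsewhere. On the log2 CPM scale FFPE and frozen liver had 1.85 and 2.51, kidney 2.67 and 3.39, heart 4.14 and 3.51, and brain 3.60 and 4.68. Liver was lowest and kidney next, with FFPE kidney only just above frozen liver. The liver difference was -1.49 ± 0.45 (SE), with an interval of -2.44 to -0.53 and a limma adjusted p of 0.0294. The call was lost without frozen brain (adjusted p = 0.104), FFPE heart (0.119), FFPE liver (0.217) or frozen liver (0.141). It was also lost under quantile normalization, where the difference was -1.02 (0.171), with voom weights (0.0529) and without the preservation term (0.0503). Over all 1092 tested X-linked genes the median liver difference was -0.28, against -0.08 over 23149 autosomal genes. Of the X-linked genes 3.39% were called lower and 5.50% higher, and of the autosomal genes 7.63% and 12.6%; the sex of the mice is not given in the labels.

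F7, which tissue factor binds to start the extrinsic route, was the other member with higher signal in liver. It lies at chr8:13025506-13035809. Log2 CPM was 5.83 in frozen and 6.11 in FFPE liver, and 4.96 (FFPE heart) to 5.58 (FFPE kidney) in the other 6 libraries, with no overlap. F7 was higher in liver by 0.75 ± 0.20 (SE), 1.68-fold, with a limma adjusted p of 0.015. It no longer passed without FFPE heart (adjusted p = 0.053), FFPE liver (0.264) or frozen liver (0.0785), nor under quantile normalization, where the difference was 0.59 (0.0708).

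F10, the factor that cleaves prothrombin once activated, begins 1.5 kb beyond the end of F7, at chr8:13037308-13056676. Its log2 CPM was 5.72 and 5.69 in frozen and FFPE liver, 5.62 and 6.07 in heart, 5.74 and 6.03 in brain, and 6.36 and 6.46 in kidney. Liver fell inside the range of heart, and kidney was highest. The liver difference was -0.34 with an interval of -0.70 to 0.02 (limma adjusted p = 0.174). Side by side, log2 CPM of F7 minus that of F10 was negative in all 6 libraries of brain, heart and kidney, from -1.11 to -0.37, and was 0.42 in FFPE and 0.11 in frozen liver; the change of this difference was not tested. Of the genes around the pair, Mcf2l at -0.07, Proz at -0.29, Pcid2 at -0.02, Atp11a at 0.24 and Gm15350 at -1.08 did not pass, and Cul4a passed at 0.52 (limma adjusted p = 0.0307). Cul4a lost its call when any 1 library of brain, heart or liver was left out (adjusted p 0.0502 to 0.429).

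F5, the cofactor of F10, lies at chr1:164151835-164220277 and overlaps the predicted genes Gm16548 and Gm51287. Its log2 CPM was 6.56 and 6.52 in frozen and FFPE liver, 6.45 in both kidney libraries, and 6.59 and 6.82 in brain. Heart gave both extremes, with 7.0 in frozen and 6.36 in FFPE tissue, so that liver sat within the range of a single other organ. At F5 liver minus the others was -0.07 with an interval of -0.43 to 0.29 (limma adjusted p = 0.814). Its sign changed among the alternatives, which ran from -0.42 to 0.13, none of them called.

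F2 encodes prothrombin, at chr2:91612397-91636457, a region whose end overlaps Ckap5. Log2 CPM was 5.10 in frozen and 5.02 in FFPE liver, 5.28 and 5.39 in brain, 5.45 and 5.81 in kidney, and 5.93 and 6.38 in heart. Liver was lowest and heart highest, without overlap of either with the rest, although frozen brain was close above frozen liver. The liver difference was -0.65 ± 0.19 (SE), 1.57-fold lower, with a limma adjusted p of 0.0258. Without FFPE liver the adjusted p was 0.354, without frozen liver 0.0748, without FFPE heart 0.0921, without frozen brain 0.0593, and with libraries centred on their medians 0.102. The genes on the 2 sides of F2 went opposite ways; they were chosen for mention after their values were seen. Zfp408, a zinc finger gene 6.30 kb away, was higher in liver by 1.03 (limma adjusted p = 0.000234) and kept its call without any 1 of the 8 libraries, with a lowest value of 0.62 over the alternatives. Ckap5, the microtubule gene that shares sequence with F2, was lower by -0.70 (0.0292). The Ckap5 call was lost when any 1 of 6 libraries, those of brain, heart and liver, was left out (adjusted p 0.0584 to 0.383).

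The 3 fibrinogen genes sit together on chromosome 3, in the order Fgg, Fga, Fgb, and were all lower in liver. Fga encodes the alpha chain, which carries one of the peptides that thrombin removes, and lies at chr3:83026153-83033627. Its log2 CPM was 4.42 in frozen and 4.49 in FFPE liver, against 5.86 (frozen heart) to 6.51 (FFPE brain) in the other libraries. Liver held 73 and 59 reads and the others 165 to 304, so every other library lay well above both. Liver minus the mean of the others came to -1.84 ± 0.17 (SE), 3.58-fold lower, with a limma adjusted p of 2.26e-05. It was called against each organ singly, by -1.98 against brain, -1.63 against heart and -1.91 against kidney, and it kept its call without any 1 of the 8 libraries.

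Fgb encodes the beta chain, at chr3:83042246-83049863. It had 2.90 log2 CPM in frozen and 2.88 in FFPE liver, from 25 and 19 reads. Frozen heart was next with 3.47, and the other 5 libraries had 4.34 to 4.87. For Fgb the liver difference was -1.48 ± 0.34 (SE), 2.79-fold lower, with a limma adjusted p of 0.00594; without FFPE liver it was 0.107, and under quantile normalization 0.0559. The frozen heart value lay nearer to liver than to the library above it.

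Fgg encodes the gamma chain, at chr3:83007724-83015056, and overlaps the predicted gene Gm30097. Its log2 CPM was 5.13 in frozen and 5.32 in FFPE liver, 5.58 in frozen heart and 5.73 in frozen brain, 6.14 to 6.20 in the FFPE libraries of the other organs, and 6.88 in frozen kidney. Liver was lowest, and frozen kidney stood above all others. For Fgg the liver difference was -0.90 ± 0.22 (SE), 1.86-fold lower, with a limma adjusted p of 0.0103, which became 0.107 without FFPE liver and 0.138 without frozen liver. The fall at Fgg was thus smaller in value than at Fga, whose 95% interval of -2.21 to -1.47 did not overlap that of Fgg, -1.37 to -0.42; the difference between the genes was not tested.

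The lower liver signal was not shared by the gene next to the fibrinogen genes on the Fgb side. Plrg1, a splicing factor gene 5.68 kb beyond Fgb, had a liver difference of 0.33 and did not pass the test. On the other side Lrat, a retinoid enzyme gene 103.8 kb from Fgg, had -0.39 and did not pass. Farther out, Rbm46, an RNA-binding protein gene of germ cells 131 kb from Fgg, was lower by -1.77 (limma adjusted p = 0.00477). Rbm46os, a transcript annotated next to Rbm46, spans Lrat and ends 64.1 kb from Fgg, nearer than Lrat does. Rbm46os was lower by -1.17 (limma adjusted p = 0.0317). Neither call held without frozen liver, where the adjusted p was 0.0687 and 0.315, nor without FFPE liver, where it was 0.0606 and 0.0974, and Rbm46os also missed the threshold without any 1 brain or heart library (0.0654 to 0.0889). Gm10710 at -0.97 and 1700028M03Rik at -0.52 did not pass.

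Neighbours were taken in order of gene start. Over the 41 genes among the 3 nearest on each side of any member, 4 were called lower and 3 higher in liver. Their median was -0.14. With only the nearest gene on each side, 13 genes remained, of which 1 was lower and 1 higher, with a median of -0.10. Klkb1, the lower gene, and Proz are in the clotting lists below, so the neighbours are not all from outside the clotting system. By start order this smaller set left out Ckap5, which overlaps F2, and Rbm46os, which ends nearer to Fgg than Lrat does. Both were called lower and are among the 41. The share of lower calls among the 41 was nearer to the 7.42% of all genes than to the 5 of 10 members. That difference was not tested.

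**Figure D3:**
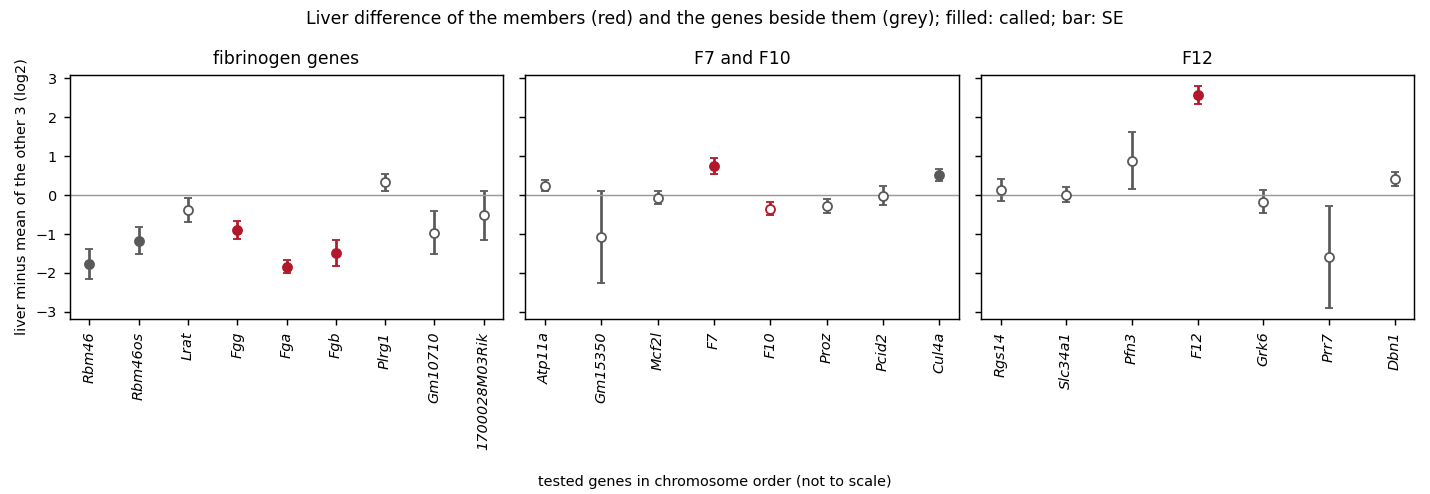
Liver minus the mean of the other 3 organs, in log2 CPM with standard errors, for members and genes beside them. These are the 3 nearest genes by start position on each side of F12, of the fibrinogen genes and of F7 and F10. F12 at 2.58 and Fga at -1.84 stand outside most of their neighbours, while Rbm46 at -1.77 is as low as Fga.

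Against single organs, fewer members passed. Liver was lower than brain at Fga, Fgb and F9 and higher at F12 and F7, which is 3 and 2 of 10 members against 12.7% and 15.8% of all genes. Against heart it was lower at Fga and F2 and higher at F12 and F7, or 2 and 2 of 10 against 3.29% and 8.76%. Against kidney it was lower at the 3 fibrinogen genes and higher at F12, or 3 and 1 of 10 against 0.754% and 1.14%. Fga and F12 were the only members called against all 3 organs. Their calls against each of the 3 held in all 8 fits without 1 library. The other pair calls did not all hold: without FFPE liver, 1 member was called lower against brain, 1 against heart and 1 against kidney. The 3 comparisons share the liver libraries.

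**Figure D4:**
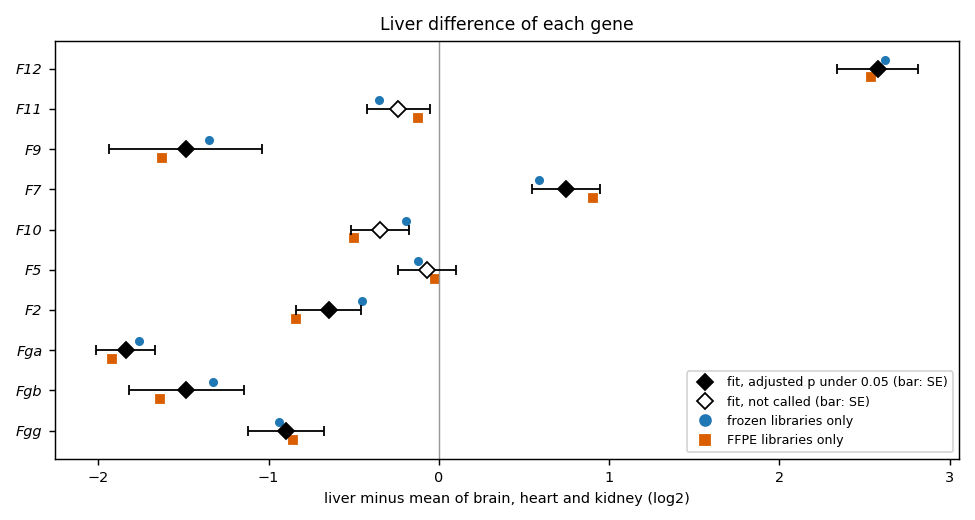
Difference of each member between liver and the mean of the other 3 organs in log2 CPM (diamonds with SE bars, filled where called), with the difference within frozen (circles) and within FFPE libraries (squares) beside it. F5, F10 and F11 are open, F12 is highest at 2.58, and frozen and FFPE points lie on the same side of 0 for every member.

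The remaining organs differed less. Against the mean of the other 3 organs, which includes liver, brain was higher at Fga by 0.80 ± 0.17 (SE; limma adjusted p = 0.00473), 1 of 10 members against 8.61% of genes, and lower at 0 of 10 against 12.8%. Heart was higher at F2 by 0.81 ± 0.19 (adjusted p = 0.0362), 1 of 10 against 0.162% of genes, and lower at F12 by -1.02 ± 0.24 (adjusted p = 0.0373), 1 of 10 against 1.97%. Kidney was lower at F12 by -1.15 ± 0.24 (adjusted p = 0.0322), 1 of 10 against 0.566%, and higher at 0 of 10 against 0.897%. At an unadjusted p under 0.05 there were 3 members in brain, 2 in heart and 5 in kidney, in either direction. The share of all genes at that threshold is not given here for these organs, so the counts are not read as an excess. In the liver comparison 8460 of 25982 genes reached it. The brain call was lost without FFPE brain (0.0671) or frozen brain (0.142). Both heart calls were lost without any 1 library of brain, heart or liver, and the kidney call without frozen brain, either heart library, frozen kidney or either liver library.

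In comparisons that leave liver out, no member was called by limma. Between brain and heart 0 of 10 passed, against 1.19% of genes lower and 0.52% higher, and F2 had the smallest adjusted p of 0.0801 with a brain minus heart difference of -0.82. Between brain and kidney 0 of 10 passed, against 9.65% lower and 6.41% higher in brain, and F10 was nearest with -0.52 and an adjusted p of 0.094. Between heart and kidney 0 of 10 passed, against 2.13% and 0.343%. At an unadjusted p under 0.05 there were 1, 1 and 3 members in these 3 comparisons, which were added after the data had been seen. The share of all genes at that threshold is not given here for them, so the counts are not read as an excess.

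Preservation moved no member past the threshold. FFPE minus frozen was called for 0 of 10 members by limma, with 0 at an unadjusted p under 0.05, against 0.735% of all genes lower and 0.62% higher in FFPE; the count was 0 under each of the 16 alternatives with a preservation term as well. The differences ran from -0.46 at F9 to 0.42 at F12, with a median of 0.16. F12 and Fga were higher in FFPE than in frozen tissue in 4 of 4 organs. For F12 the difference was 0.42 with a 95% interval of -0.02 to 0.86, and for Fga 0.19 with an interval of -0.13 to 0.50. Neither interval excludes 0, and that of F9 was the widest, from -1.28 to 0.37.

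Genes of the rest of the clotting system were tested in the same liver comparison, in which 7.42% of all genes were called lower and 11.8% higher. With libraries centred on their medians, 2 of 8 other procoagulants, 1 of 5 vitamin K genes and 5 of 11 receptors were called higher, against 0, 0 and 3 without centring. Of 8 other procoagulant genes 3 were lower and 0 higher, with a median of -0.33. These were F13b, the carrier subunit of the clot-stabilising factor, by -0.95 (limma adjusted p = 0.0159), the kininogen gene Kng1 by -1.45 (0.0166), and Klkb1 by -0.71 (0.0197). Kng1 has a close copy in Kng2, and the sources used here do not say how reads of the pair were assigned. Kng1 was at -0.74 (0.389) without frozen liver. Without frozen liver or frozen brain 0 of these 8 were called, and without FFPE liver or FFPE heart 1.

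Among 12 coagulation inhibitors 3 were lower and 0 higher, with a median of -0.53. Thbd, the endothelial thrombin receptor that turns thrombin towards protein C activation, was lower by -2.51 (limma adjusted p = 0.000461), from 7 and 17 reads in liver against 22 to 140 elsewhere. Thbd was also higher in brain than in the mean of the other organs, by 2.11 (limma adjusted p = 0.00185). That mean includes liver, and Thbd was not called between brain and heart or between brain and kidney. Serpinc1, which encodes antithrombin, was lower in liver by -1.19 (0.000658). Thbd and Serpinc1 kept their liver calls without any 1 library. Serpind1, heparin cofactor, was lower by -1.16 (0.041) and overlaps Pi4ka; it was called in 2 of the 8 fits without 1 library, and its adjusted p rose to 0.285 without FFPE liver.

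Of 9 fibrinolysis genes 4 were lower and 0 higher, with a median of -0.85. Hrg, a plasma protein that binds plasminogen and heparin, was lower by -2.21 (limma adjusted p = 0.000635), from 13 and 16 reads in liver against 26 to 95 elsewhere. Plg, the plasmin precursor, was lower by -0.85 (0.00605), Hgfac by -1.19 (0.00623), and Serpinf2, the main plasmin inhibitor, by -1.0 (0.0189). Hgfac is a protease related to F12 that activates hepatocyte growth factor rather than dissolving fibrin. Of the 4, Hrg alone kept its call without any 1 library; without frozen liver 1 of the 9 was called and without FFPE liver 2. Plau, the urokinase gene, was not called in liver against the mean of the others, but was lower in liver than in brain by -1.77 (0.00243).

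Of 5 genes of the vitamin K cycle and factor secretion 0 were called in liver by limma, and their median was 0.00. At an unadjusted p under 0.05 there was 1 of the 5, against 8460 of 25982 genes. Of 11 thrombin and platelet receptors 3 were higher and 1 lower, with a median of 0.35. The 3 were protease-activated receptors: F2r, the main thrombin receptor, by 1.21 (limma adjusted p = 4.33e-05), F2rl2 by 0.87 (0.00134) and F2rl1 by 0.76 (0.00402). They are neighbours on chromosome 13, between 95511718 and 95702768, and F2rl2 lies within Iqgap2. F2r kept its call without any 1 library, F2rl2 lost it without FFPE liver (0.0791), and F2rl1 lost it without frozen liver (0.13). Under quantile normalization F2r differed by 0.68 and kept its call, while F2rl2 at 0.46 (0.0699) and F2rl1 at 0.41 (0.117) did not. Gp1bb, a platelet adhesion receptor subunit that overlaps Septin5, was lower by -3.01 (0.0125) on the fitted scale, with 0 and 8 reads in liver against 6 to 43 elsewhere. Without FFPE liver it was -1.57 (0.309).

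**Figure D5:**
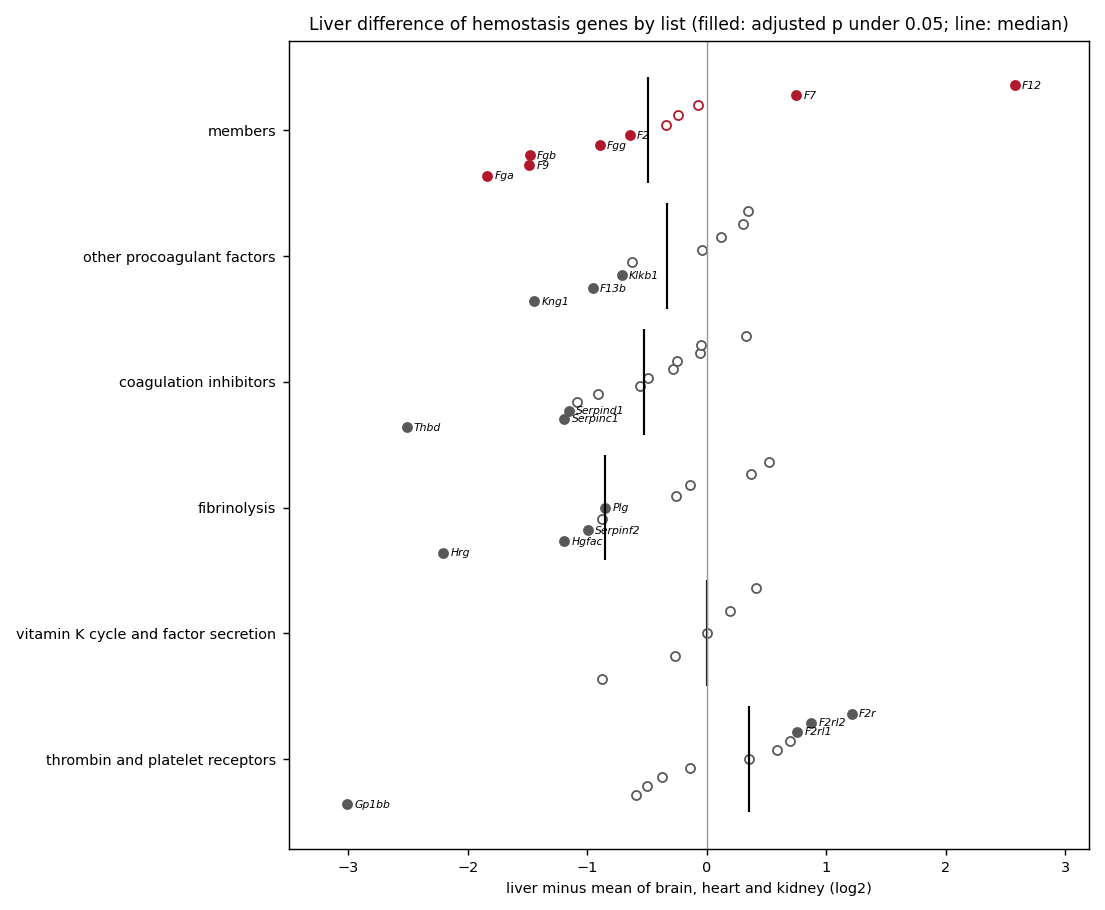
Liver minus the mean of the other 3 organs in log2 CPM for each gene of the members and of the 5 other clotting lists, filled where called, with a line at the median of each list. Filled points lie below 0 in the procoagulant, inhibitor and fibrinolysis lists, and 3 of the thrombin and platelet receptors lie above.

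Markers of other liver and blood cells were set beside these values. Of 8 genes of liver sinusoidal endothelium and Kupffer cells 4 were lower in liver and 0 higher, against 7.42% and 11.8% of all genes tested. The median of the 8 was -0.78, and that of all genes tested was -0.10. The summed signal of the 8 was 439 and 459.8 CPM in liver against 416 to 516 in the other libraries. Stab1 gave the largest part of that sum, with 8.23 log2 CPM in FFPE and 8.24 in frozen liver. Its liver difference was 0.36 (limma adjusted p = 0.0571), opposite in sign to the 4 lower genes. Of 6 platelet and megakaryocyte genes 0 were called in liver by limma and 0 had an unadjusted p under 0.05, with a summed signal of 108 and 125 CPM against 116 to 156. None of these 14 genes was at 0 reads in any library. The part of the cell make-up of the organs in the members' differences was not tested.

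Across the 8 libraries, the genes whose log2 CPM ran most like that of Fga were Stum, Srrm4 and Hrh1, with Pearson r of 0.985, 0.969 and 0.969. For F12 they were A930006D01Rik, Fam161a and Ezr, with 0.984, 0.980 and 0.979. These were the top of 12991 genes in the upper part of the range of mean signal, from the median up, so high values are selected, and the points share the 8 libraries. In liver, Stum differed from the mean of the other organs by -0.91 and A930006D01Rik by 1.39, smaller than the members they follow.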

How the data were processed

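Per the submitters' processing notes, Bowtie2, featureCounts and limma were used with mouse build mm10; the sources used here give no versions, counted feature or strand. The authors deposited log2 CPM, with 8 columns (1 for each organ and preservation) and 27179 genes. Stepping these back, with 0.5 added per count and a tolerance of 1e-04, gave whole reads for 100% of values; reads were used for depth, the reads printed and 1 alternative. A count of 0 allows 3 reads, counting error only. Input values, and enrichment over them, were not analysed here.

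Genes reaching 1 CPM in 2 or more libraries (25982 kept, 1197 removed) were fitted with organ and preservation in limma 3.58.1 (R 4.3.3), with a variance trend, 5 coefficients, 3 residual and 13.1 prior degrees of freedom, and Benjamini-Hochberg adjustment over all tested genes within a comparison at 0.05. Differences are between means of log2 CPM, and folds of low genes are understated by the 0.5. Genes were placed by Entrez ID on RefSeq GRCm38.p6 (25275 matched; 10 of 10 members), and promoter windows came from RefSeq for 10 of 10. The fit was also run on simulated normal values that had no organ or preservation effects apart from added liver shifts. That run checks the code only, since it does not mimic the counts or the spread between preservations.

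The members and lists were chosen with earlier results of these data known. All members are named. From other lists, up to 4 called in liver and up to 2 called elsewhere are named. The 3 nearest genes by start position on each side of F12, fibrinogen, F7 and F10 are named too. So are the 3 genes most correlated with Fga and with F12. Alternatives were 2 other filters, quantile normalization, centring on medians, log2(CPM + 1), array weights, voom weights, no preservation term, no variance trend, and leaving out each library.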

Additional observations from a re-analysis of the deposited data

Results flagged for a closer look

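F11 in kidney stood apart in the comparison of preservations. FFPE minus frozen was -0.34 log2 CPM in kidney and 0.22, 0.19 and 0.25 in brain, heart and liver. The gap between kidney and the nearest other organ was 0.892 of the whole range, above Dixon's 95% critical value for 4 values. The same check was made for all 10 members, and chance flags about 1 in 20. F11 was not called in any comparison between organs.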

How the results depend on the processing

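Without the variance trend 0 members were called in liver in either direction, and 0 of 25982 genes (7101 at an unadjusted p under 0.05); counts then were 0 in brain, heart and kidney, 1 lower and 1 higher for liver against brain, 0 against heart and kidney, and 0 in every other clotting list. Fga and F12 had an adjusted p of 0.0748 there and kept their liver call in the other 16 of 17 alternatives; no called difference changed sign, while F5, which was never called, ran from -0.42 to 0.13. Under quantile normalization 3 members were lower and 1 higher in liver, 1 was higher against brain and 1 against heart, kidney had 0 lower, other procoagulants 1 lower, receptors 1 higher and 0 lower. Centring gave a members' median of -0.30, 1 member lower in brain, 1 higher in kidney, and higher in liver 2 other procoagulants, 1 vitamin K gene and 5 receptors. Array weights gave 2 higher in brain, 0 lower in kidney and 5 lower against heart. Voom weights gave 2 higher in brain, 0 lower in heart, 4 higher in kidney and 0 receptors lower. Without the preservation term heart had 0 in either direction, kidney 0 lower, and liver against kidney 1 lower. The filter on all 8 libraries gave 2 higher in kidney and 0 receptors lower, and log2(CPM + 1) gave 1 higher in kidney. Leaving out each library in turn, members lower in liver ranged from 1 to 5 and higher from 1 to 2; brain higher 0 to 2; heart lower and higher 0 to 1; kidney lower 0 to 1 and higher 0 to 3; liver against brain 1 to 4 lower and 1 to 2 higher, against heart 1 to 4 and 1 to 2, against kidney 1 to 3 and 1 to 1. Other procoagulants ranged from 0 to 4 lower and 0 to 1 higher, inhibitors from 2 to 4 lower, fibrinolysis from 1 to 5 lower, vitamin K genes from 0 to 1 higher, and receptors from 0 to 1 lower and 2 to 5 higher. Over all genes, calls in liver also fell in both directions when a brain, heart or liver library was left out, most without a liver library. They rose when a kidney library was left out. Without frozen liver F9, F2 and F7 differed by -1.62, -0.84 and 0.91, and without FFPE liver by -1.35, -0.45 and 0.59. Beyond fewer libraries or genes, the cause of the changed counts was not tested. The share of all genes called under each alternative is not given here for comparisons other than liver against the mean of the others. Changes of those member counts are thus not read as particular to the members. F9, with 9 reads in FFPE liver, was the member most limited by depth. No paired analysis was possible because the columns carry no replicate numbers.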
